A study of Mus musculus with 6 samples.

Results

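The vascular endothelial growth factor (VEGF) genes of tumor endothelial cells (ECs) are described here by 8 members: the receptors Kdr and Flt1, the neuropilins Nrp1 and Nrp2, and the ligands Vegfa, Vegfb, Vegfc and Pgf. They were taken by gene symbol from 24346 genes. All 8 averaged 1 FPKM or more across the libraries, the level required for testing, which 10964 genes reached. FPKM is a read number corrected for transcript length and sequencing depth, so that levels of different genes can be compared.

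The RNA-sequencing compared WT mice with mice lacking Apelin (Apelin-KO), a peptide made by ECs that acts on the receptor APJ, and asked how its loss alters tumor ECs. Both groups were C57BL/6 mice aged 8 to 10 weeks that carried subcutaneous tumors of MC38, a mouse colon carcinoma cell line, taken at day 19. CD31+ CD45- cells were sorted from digested tumors, and 3 WT and 3 Apelin-KO samples were sequenced. The Apelin-KO mice lack the gene in every tissue and not in ECs alone, while the inoculated tumor cells are the same line in both groups. The sample titles also name Saline in every group, an agent that the study's methods do not mention for this experiment. The labels do not say that each sample came from its own animal, so that the p-values measure the spread between these samples, which may in part be technical.

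VEGF ligands are secreted dimers that drive the growth, survival and permeability of blood vessels. VEGF-A signals mainly through VEGFR2, the product of Kdr, whereas VEGFR1, the product of Flt1, binds VEGF-A, VEGF-B and PlGF tightly with weak kinase activity, and its soluble form traps ligand. Neuropilins are co-receptors with a short cytoplasmic tail that hold both VEGF and class 3 semaphorins. VEGF-C acts mainly through VEGFR3, the product of Flt4, on lymphatic vessels and sprouting blood vessels. In tumors, hypoxic tumor cells and stromal cells are usually the chief source of VEGF-A, and ECs carry the receptors.

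The estimated depth was 8940000 to 10160000 reads per sample, derived from the steps that single reads leave in low FPKM, and 14089 to 14621 genes had a value above 0. Apln, the gene removed in the knockout, stood at 432, 435 and 504 FPKM in WT 1, 2 and 3 and at 9.96, 17.5 and 24.3 FPKM in the Apelin-KO samples 1, 2 and 3. Its log2 fold change was 4.73 (SE 0.29, WT minus Apelin-KO) with an adjusted p of 0.00747 by limma, and it was the only gene with an adjusted p under 0.05. That threshold was thus passed by 0.00912% of the genes tested, an unadjusted p under 0.05 by 9.42%, and 14.4% had groups that did not overlap. The median log2 fold change of all genes tested was -0.0101. Of the markers used in the sort, Pecam1 (CD31) lay between 553 and 846 FPKM and Ptprc (CD45) between 0.043 and 4.84 FPKM. The other hematopoietic markers lay on both sides of Ptprc, from Cd79a, at most 0.262 FPKM, to Lyz2, between 40.9 and 380 FPKM, and the least abundant endothelial marker was Erg, between 9.02 and 14.98 FPKM.

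Of the 8 members, 0 had an adjusted p under 0.05 and 0 had an unadjusted p under 0.05. In 1 of 8, or 12.5%, the groups did not overlap, against the 14.4% of all genes tested. Log2 fold changes ran from -0.59 for Pgf to 0.57 for Vegfa with a median of 0.05. Adjusted p-values ran from 0.53 to 0.981 by limma. Thus no difference between WT and Apelin-KO tumor ECs was established for any VEGF ligand, receptor or neuropilin in these samples. The intervals given with each gene show how large a difference they still allow in FPKM + 1, a scale that understates differences of low genes.

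**Figure D1:**
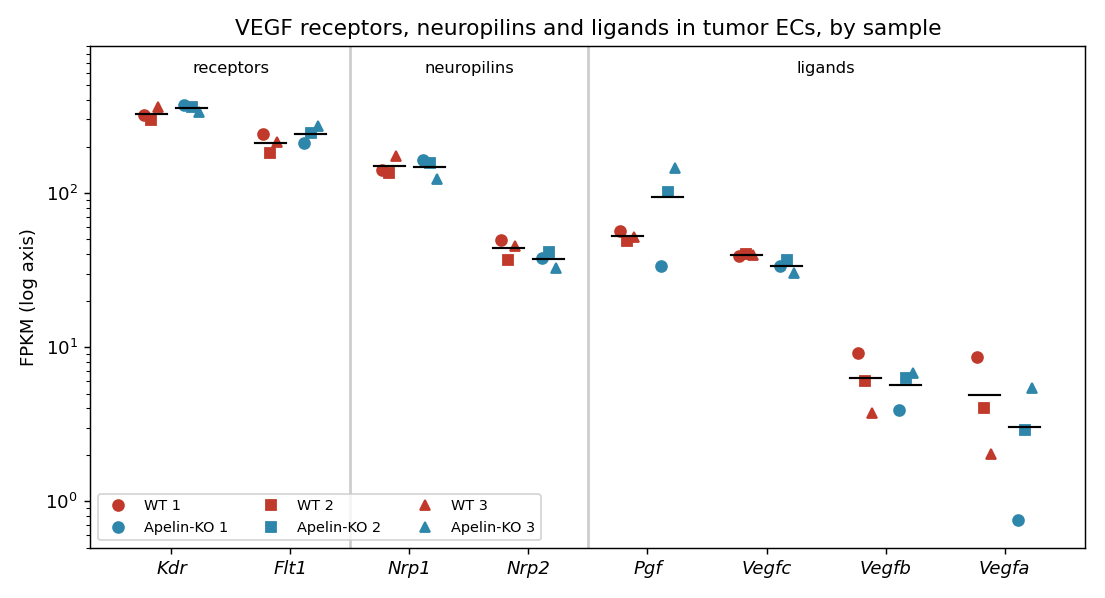
FPKM of the 8 members in each of the 3 WT and 3 Apelin-KO samples (points, log axis) with the group means (bars). Kdr, Flt1 and Nrp1 stand above 100 FPKM in all samples, and Vegfa and Vegfb below 10 FPKM. The widest spread within a group is that of Vegfa in both groups and of Pgf in Apelin-KO.

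The promoters of Kdr and Flt1, the most abundant receptors, and of Vegfa and Vegfb, whose levels moved together, are shown as the 250 bases before the RefSeq start in GRCm38.p6, 5′ to 3′ on the gene's own strand. Capitals mark matches to the GC box GGGCGG on either strand (read as CCGCCC on the other) and to TATAAA.
Kdr promoter (chr5:75978456-75978705, minus strand): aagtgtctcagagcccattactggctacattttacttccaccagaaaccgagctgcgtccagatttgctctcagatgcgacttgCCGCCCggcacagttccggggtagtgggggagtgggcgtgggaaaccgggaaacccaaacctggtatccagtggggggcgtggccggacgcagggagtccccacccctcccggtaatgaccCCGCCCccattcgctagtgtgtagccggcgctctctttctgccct
Flt1 promoter (chr5:147726012-147726261, minus strand): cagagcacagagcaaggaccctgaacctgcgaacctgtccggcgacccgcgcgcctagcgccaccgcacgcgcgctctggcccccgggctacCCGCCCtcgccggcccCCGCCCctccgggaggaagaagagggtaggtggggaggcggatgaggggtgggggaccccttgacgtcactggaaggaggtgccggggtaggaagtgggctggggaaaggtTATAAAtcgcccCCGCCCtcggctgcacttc
Vegfa promoter (chr17:46032378-46032627, minus strand): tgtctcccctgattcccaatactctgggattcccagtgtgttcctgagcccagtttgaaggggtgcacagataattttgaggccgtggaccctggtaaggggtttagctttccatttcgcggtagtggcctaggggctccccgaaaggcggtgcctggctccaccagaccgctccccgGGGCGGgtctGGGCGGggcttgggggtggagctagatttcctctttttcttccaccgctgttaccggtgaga
Vegfb promoter (chr19:6987652-6987901, minus strand): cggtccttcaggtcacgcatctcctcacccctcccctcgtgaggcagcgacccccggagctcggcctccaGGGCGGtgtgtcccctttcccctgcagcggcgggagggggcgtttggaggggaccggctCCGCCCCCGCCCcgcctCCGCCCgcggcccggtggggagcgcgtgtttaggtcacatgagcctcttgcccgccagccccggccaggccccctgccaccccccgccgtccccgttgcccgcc
RefSeq lists a second start for Vegfa, 7206 bases from the GENCODE gene start, which is not shown and whose window holds 1 match to ACGTG.

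These windows are rich in G and C. Their GC content was 61.6% for Kdr, 70.4% for Flt1, 59.2% for Vegfa and 76.4% for Vegfb, against a median of 52.4% over 32851 promoters of the same length. GC boxes, the sites read by SP factors, were matched 2 times in Kdr, 3 times in Flt1, 2 times in Vegfa and 4 times in Vegfb, none of them overlapping, and 32.7% of all promoters held at least 1. TATAAA, searched on both strands, was matched only in Flt1 among these 4, 31 bases before the start, and occurs in 12.4% of promoters. ACGTG, the core of the element bound by hypoxia-inducible factors, had 0 matches on either strand in the 4 windows shown, 1 match in the window of the other Vegfa start, and occurs in 16.6% of promoters. GGAA, the core of ETS factor sites, had 4 matches in Kdr, 4 in Flt1, 6 in Vegfa and 1 in Vegfb, and 93.4% of promoters hold it. These matches describe the letters of the windows.

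Kdr encodes VEGFR2, the main signalling receptor for VEGF-A (GRCm38 chr5:75932827-75978458, minus strand, 30 exons). Its level was 319, 299 and 364 FPKM in WT 1, 2 and 3 and 374, 363 and 337 FPKM in the Apelin-KO samples 1, 2 and 3. The groups overlapped, and the highest sample exceeded the lowest only 1.25-fold. The means were 327 ± 33.2 FPKM in WT and 358 ± 18.9 FPKM in Apelin-KO (SD, n = 3). The log2 fold change was -0.13 (SE 0.11) with an adjusted p of 0.736 by limma, and its 95% interval as a fold, WT over Apelin-KO, ran from 0.76 to 1.10. Leaving out WT 2 brought the log2 fold change to -0.0686, and leaving out WT 3 to -0.21, with groups that did not overlap. Kdr ranked 188th by mean FPKM among the genes tested and rested on an estimated 15300 to 21100 reads per sample.

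Flt1 encodes VEGFR1, which binds VEGF-A, VEGF-B and PlGF (chr5:147561604-147726011, minus strand, 30 exons). It measured 242, 181 and 213 FPKM in WT 1, 2 and 3 and 211, 246 and 271 FPKM in the Apelin-KO samples 1, 2 and 3. The groups overlapped, with the lowest value in WT 2 and the highest in Apelin-KO 3. Means were 212 ± 30.7 FPKM and 243 ± 30.3 FPKM (SD, n = 3), with a log2 fold change of -0.20 (SE 0.15) and an adjusted p of 0.703 by limma. The 95% interval of the fold was 0.683 to 1.11. The log2 fold change was -0.0896 without WT 2, -0.115 without Apelin-KO 3, -0.30 without WT 1 and -0.295 without Apelin-KO 1, where the groups did not overlap. GENCODE lists 6 transcripts of Flt1, 2 of them coding, and a value per gene does not separate the membrane receptor from the soluble form.

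In each sample Kdr exceeded Flt1. The Kdr to Flt1 ratio was 1.32, 1.65 and 1.71 for WT 1, 2 and 3, against 1.77, 1.48 and 1.24 for Apelin-KO 1, 2 and 3. The WT range lay within the Apelin-KO range, with means of 1.56 ± 0.212 and 1.5 ± 0.265 (SD, n = 3). The receptors had a Pearson correlation of 0.28 over the 6 samples, given without a p as the samples share a depth and a normalization with every other gene. Flt4, which encodes the receptor of VEGF-C and is not a member, was at 110 ± 27.8 FPKM in WT and 108 ± 9.1 FPKM in Apelin-KO (SD, n = 3).

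Nrp1 encodes the co-receptor that VEGF-A binds together with VEGFR2 (chr8:128358604-128503363, plus strand, 17 exons). Its level was 142, 134 and 173 FPKM in WT 1, 2 and 3 and 164, 156 and 124 FPKM in the Apelin-KO samples 1, 2 and 3. The highest and the lowest value fell in different groups, and the ranges overlapped broadly. Means were 150 ± 20.5 FPKM and 148 ± 20.8 FPKM (SD, n = 3), the log2 fold change was 0.02 (SE 0.15) and the adjusted p was 0.981 by limma. A fold from 0.791 to 1.30 lay within the 95% interval. The log2 fold change was -0.0891 without WT 3, -0.10 without Apelin-KO 3 and 0.248 after centring on endothelial markers. The microRNA gene Mir1903 overlaps an exon of Nrp1 on the same strand.

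Nrp2 encodes the neuropilin used by VEGF-C in lymphatic ECs and by SEMA3F (chr1:62703285-62818695, plus strand, 17 exons). It stood at 49.7, 37.0 and 45.6 FPKM in WT 1, 2 and 3 and at 37.6, 41.5 and 32.6 FPKM in the Apelin-KO samples 1, 2 and 3. WT 1 and WT 3 lay above all Apelin-KO samples and WT 2 lay within their range. The means of 44.1 ± 6.45 FPKM and 37.2 ± 4.47 FPKM (SD, n = 3) gave a log2 fold change of 0.24 (SE 0.15) with an adjusted p of 0.644 by limma. The 95% interval of the fold was 0.925 to 1.5. Without WT 2 the log2 fold change was 0.353 with an unadjusted p of 0.0486 and an adjusted p of 0.931, while it was 0.146 without WT 1 and 0.145 without Apelin-KO 3.

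Nrp1 was above Nrp2 in every sample. Their ratio was 2.86, 3.63 and 3.79 for WT 1, 2 and 3, against 4.35, 3.75 and 3.82 for Apelin-KO 1, 2 and 3. The groups overlapped through WT 3 and Apelin-KO 2, and the means were 3.42 ± 0.498 and 3.97 ± 0.326 (SD, n = 3). Nrp1 varied together with Kdr (r = 0.73 over the 6 samples) more than with Nrp2 (r = 0.53), whereas Nrp2 had its highest correlation among members with Vegfc (r = 0.71).

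Vegfc, the ligand of VEGFR3, was the member whose groups did not overlap (chr8:54077606-54187096, plus strand, 7 exons). It measured 39.0, 40.4 and 39.7 FPKM in WT 1, 2 and 3 and 33.4, 36.9 and 30.2 FPKM in the Apelin-KO samples 1, 2 and 3. All WT samples lay above all Apelin-KO samples, and the WT samples differed among themselves only 1.04-fold. Means were 39.7 ± 0.712 FPKM and 33.5 ± 3.35 FPKM (SD, n = 3), which put Apelin-KO at 84.4% of WT. A log2 fold change of 0.24 (SE 0.11) resulted, with an unadjusted p of 0.0565 and an adjusted p of 0.53 by limma. The 95% interval of the fold, 0.994 to 1.41, included no difference. The unadjusted p depended on the setting, as an unmoderated variance gave 0.0417 and the replicate block 0.0921, and it ran from 0.0295 without Apelin-KO 2 to 0.141 without Apelin-KO 3.

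Pgf encodes PlGF, a ligand of VEGFR1 that does not bind VEGFR2 (chr12:85166635-85177790, minus strand, 7 exons). Its level was 56.5, 48.8 and 51.9 FPKM in WT 1, 2 and 3 and 33.5, 102 and 146 FPKM in the Apelin-KO samples 1, 2 and 3. Apelin-KO 1 was the lowest of all samples and Apelin-KO 2 and 3 were the highest, with the WT samples between them. Within Apelin-KO the values spanned 4.36-fold, against 1.16-fold within WT. Means were 52.4 ± 3.89 FPKM and 93.8 ± 56.7 FPKM (SD, n = 3), and the log2 fold change of -0.59 (SE 0.48) had an adjusted p of 0.721 by limma. The 95% interval of the fold was wide, from 0.30 to 1.46. Without Apelin-KO 1 the log2 fold change was -1.21, with an unadjusted p of 0.00053 and an adjusted p of 0.482, and without Apelin-KO 3 it was -0.16 with an adjusted p of 0.951, so that its size rested on single libraries.

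Vegfa, which encodes VEGF-A, the principal angiogenic ligand, was the least abundant member (chr17:46016993-46032369, minus strand, 8 exons). It was listed at 8.57, 4.02 and 2.03 FPKM in WT 1, 2 and 3 and at 0.751, 2.92 and 5.46 FPKM in the Apelin-KO samples 1, 2 and 3. The highest value was in WT 1 and the lowest in Apelin-KO 1, an 11.4-fold span, and the groups overlapped. With means of 4.87 ± 3.35 FPKM and 3.04 ± 2.36 FPKM (SD, n = 3), the log2 fold change was 0.57 (SE 0.56) and the adjusted p 0.772 by limma. A fold between 0.598 and 3.70 could not be told from the spread. Leaving out Apelin-KO 1 brought the log2 fold change to 0.0649 and leaving out WT 1 to 0.141, whereas it was 0.97 without WT 3 and 1.01 without Apelin-KO 3. It was 0.285 with a pseudocount of 5 FPKM and 0.805 with one of 0.1 FPKM. Vegfa rested on an estimated 22.7 to 279 reads per sample, computed with its longest coding transcript of 3451 bases, while the shortest of its 8 coding transcripts has 513 bases.

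Vegfb encodes VEGF-B, a ligand of VEGFR1 and Nrp1 (chr19:6982473-6987651, minus strand, 7 exons). Its level was 9.15, 6.01 and 3.73 FPKM in WT 1, 2 and 3 and 3.92, 6.27 and 6.80 FPKM in the Apelin-KO samples 1, 2 and 3. WT 1 was again the highest, and WT 3 and Apelin-KO 1 were the lowest. Means were 6.30 ± 2.72 FPKM and 5.66 ± 1.53 FPKM (SD, n = 3), with a log2 fold change of 0.09 (SE 0.30), an adjusted p of 0.945 by limma and a 95% interval of the fold from 0.653 to 1.74. The sign of this difference turned without WT 1, to -0.182, and without Apelin-KO 1, to -0.114. The estimated reads were 36.8 to 99.2 per sample.

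**Figure D2:**
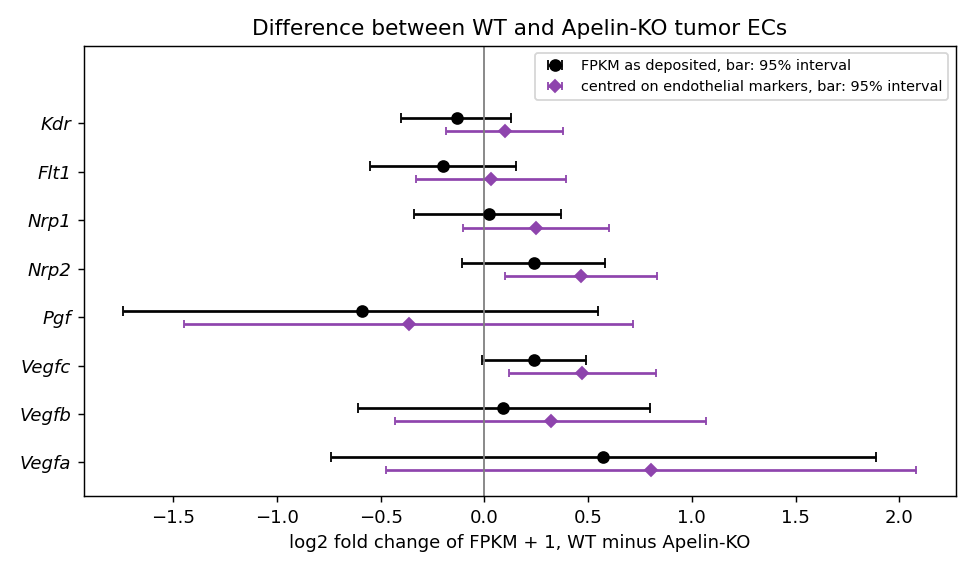
Log2 fold change of FPKM + 1, WT minus Apelin-KO, of each member with its 95% interval, on the deposited scale and after centring each sample on 15 endothelial marker genes. Every interval on the deposited scale includes 0, and centring moves all members towards WT, which turns Kdr to 0.0979 and Flt1 to 0.0311 and leaves 0 outside the intervals of Nrp2 and Vegfc.

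By mean FPKM over the 6 samples the order was Kdr 343, Flt1 227, Nrp1 149, Pgf 73.1, Nrp2 40.7, Vegfc 36.6, Vegfb 5.98 and Vegfa 3.96. The ranges of Kdr, Flt1 and Nrp1 over the samples did not overlap with each other. Pgf, from 33.5 to 146 FPKM, overlapped with Nrp1, Nrp2 and Vegfc, and Nrp2 and Vegfc overlapped as neighbours. Vegfb and Vegfa overlapped in range, although Vegfb was the higher of the pair in all samples.

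The members also differed in how reproducible they were. The SD of log2 FPKM + 1 within groups was 0.12 for Kdr and 0.10 for Vegfc, below the median of 0.16 over all genes tested. It was 0.20 for Flt1, 0.20 for Nrp1 and 0.19 for Nrp2. By contrast it was 0.89 for Vegfa, 0.77 for Pgf and 0.46 for Vegfb, which placed them at percentiles 98.9, 98.5 and 94.6 of that spread. By this SD over both groups, the ligands other than Vegfc varied more than the receptors and neuropilins did. For Pgf this came from Apelin-KO alone, where its values spanned 4.36-fold. Its WT samples spanned 1.16-fold, less than those of Kdr (1.22-fold). Estimated reads were lowest for Vegfa and Vegfb, while Pgf had 585 to 2570 per sample, and the part of read number in this spread was not tested.

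**Figure D3:**
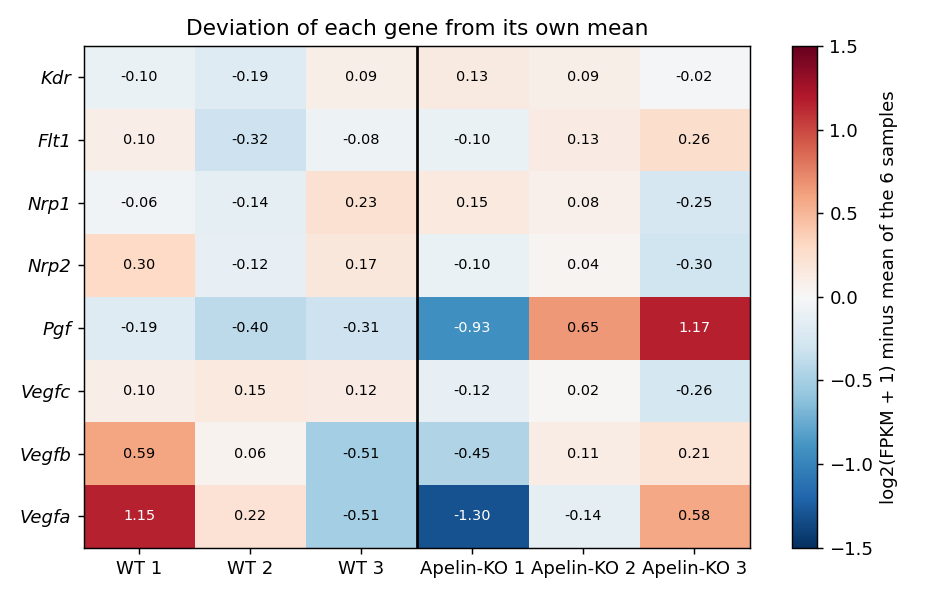
Deviation of each member in each sample from its mean over the 6 samples, in log2 FPKM + 1. Vegfa and Vegfb deviate together, lowest in Apelin-KO 1 and WT 3 and highest in WT 1, and Pgf is lowest in Apelin-KO 1 and highest in Apelin-KO 3.

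Among the ligands, Vegfa and Vegfb had the highest correlation of any pair of members, r = 0.92 over the 6 samples. Flt1 and Pgf, a receptor and its ligand, followed with r = 0.77. Vegfa ran opposite to Kdr (r = -0.72) and to Nrp1 (r = -0.72). All 28 pairs were computed, over points that share libraries, and these values are descriptions.

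The makeup of the ligand transcripts differed between samples. The 4 ligands summed to 113, 99.2 and 97.3 FPKM in WT 1, 2 and 3 and to 71.6, 148 and 189 FPKM in the Apelin-KO samples 1, 2 and 3, mostly through Pgf. Pgf made up 49.9%, 49.1% and 53.3% of this sum in WT 1, 2 and 3, compared with 46.9%, 68.8% and 77.5% for the Apelin-KO samples 1, 2 and 3. Vegfa contributed between 1.05% and 7.57%, so that VEGF-A transcripts were a minor part of the ligand RNA in every sample. The 2 receptors and 2 neuropilins together gave 753, 651 and 795 FPKM in WT and 786, 806 and 765 FPKM in Apelin-KO.

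**Figure D4:**
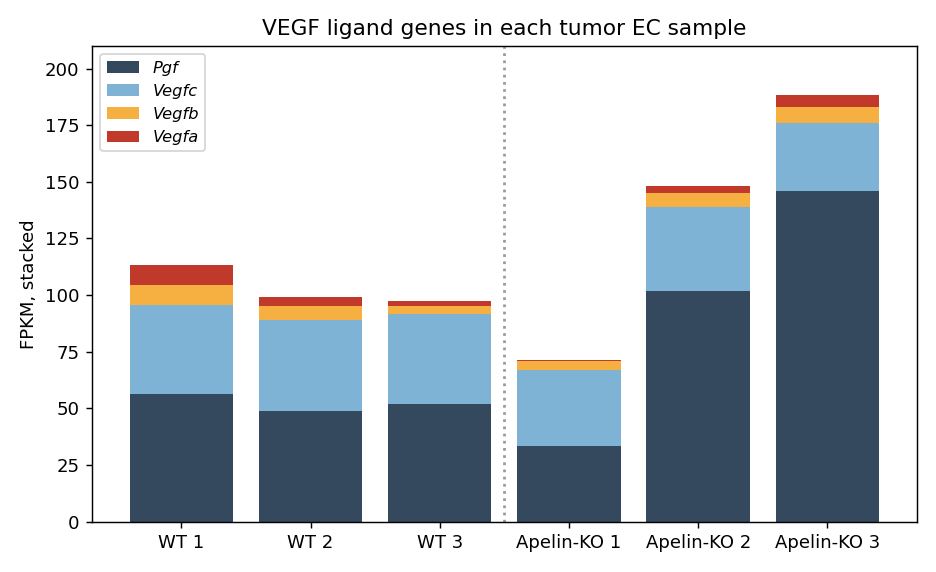
FPKM of the 4 ligand genes stacked in each of the 3 WT and 3 Apelin-KO samples. The sum is between 97.3 and 113 in WT and between 71.6 and 189 in Apelin-KO, and Pgf is the main part of the difference.

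Of the 4 ratios computed by plan, Pgf to Vegfa was the one whose groups did not overlap. It was 6.59, 12.1 and 25.6 for WT 1, 2 and 3, against 44.6, 34.9 and 26.8 for Apelin-KO 1, 2 and 3. The WT and Apelin-KO ranges were separated only between 25.6 and 26.8, and the means were 14.8 ± 9.76 and 35.4 ± 8.95 (SD, n = 3). As a log2 ratio the difference, WT minus Apelin-KO, was -1.45, and it ran from -0.977 without WT 1 to -1.95 without WT 3. No test was run on any ratio. The members were chosen with results of these samples known, which holds for their own p-values as well. Vegfb to Vegfa was 1.07, 1.5 and 1.84 in WT against 5.23, 2.15 and 1.25 in Apelin-KO, and its groups overlapped.

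The wider family and its signalling pathway were read from lists of genes. Among 5 tested genes outside the members, Flt4 was the only one of the VEGF family itself (unadjusted p of 0.997 by limma). The rest were platelet-derived growth factors and their receptors. Of the 5, 2, Pdgfa and Pdgfra, or 40%, had an unadjusted p under 0.05, against 9.42% of all genes. This count was 1 in several settings and 0 under unmoderated variances. Pdgfa, a platelet-derived growth factor, was at 18.1 ± 0.245 FPKM in WT and 11.3 ± 3.96 FPKM in Apelin-KO (SD, n = 3), with an unadjusted p of 0.0159 and an adjusted p of 0.501 by limma. Pdgfra, a receptor of that family and also a fibroblast marker, was at 2.83 ± 1.01 and 1.51 ± 0.668 FPKM (unadjusted p of 0.0455 by limma). Figf (VEGF-D) was below the level tested, between 0 and 1.48 FPKM. None of the genes of any list had an adjusted p under 0.05. Unadjusted p-values are therefore given below only for description.

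Among 51 genes tested of 54 that act downstream of VEGF receptors, 10 had a higher mean log2 value in WT and 41 in Apelin-KO, where 47.5% of all genes tested were higher in WT, and the median log2 fold change was -0.09. Endothelial markers lay the same way with a median of -0.22. Centring on them moves all genes alike, so that 44 genes of the list were then higher in WT and 7 in Apelin-KO, while the list median relative to that of all genes was -0.0798 on either scale. An unadjusted p under 0.05 was reached by 6, or 11.8%, against 9.42% of all genes, all of them higher in Apelin-KO. This count was 1 with the replicate block, 3 without WT 1, WT 2, Apelin-KO 1 or Apelin-KO 2, and 3 after centring on endothelial markers or scaling to equal FPKM sums. The adaptor Shb was at 2.56 ± 0.335 FPKM in WT and 3.49 ± 0.239 FPKM in Apelin-KO (SD, n = 3), with an unadjusted p of 0.0179 by limma. Nfatc1, a transcription factor activated by calcineurin, was at 18.0 ± 0.0831 FPKM and 22.7 ± 1.52 FPKM (unadjusted p of 0.0123 by limma), and the guanine nucleotide exchange factors Sos1 and Vav3 had log2 fold changes of -0.27 each. Groups did not overlap in 11 of the 51, or 21.6% against 14.4% of all genes, all higher in Apelin-KO. The GTPases Rac1, Cdc42 and Rhoa were the most abundant of the list, and their log2 fold changes were -0.12, -0.03 and -0.03.

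Receptor partners and trafficking genes lay on both sides of 0. Of 25 tested, 3 had an unadjusted p under 0.05 and a higher level in WT, and 2 a higher level in Apelin-KO, together 20% against 9.42% of all genes. This count of 5 was 0 without WT 1 and without WT 2, 2 without Apelin-KO 1 and without Apelin-KO 3, and 1 with each gene's own variance. The latter were Cdh5 (VE-cadherin), at 180 ± 30.6 and 248 ± 40.3 FPKM, and Ptprb (VE-PTP), at 45.9 ± 4.05 and 56.1 ± 2.55 FPKM in WT and Apelin-KO (SD, n = 3). Those higher in WT were Gpc1, the heparan sulfate proteoglycan Sdc2, at 11.5 ± 4.43 and 5.54 ± 1.51 FPKM, and the phosphatase Ptpn6, at 5.58 ± 3.32 and 1.93 ± 0.674 FPKM, which is known chiefly from hematopoietic cells. Of 9 tested plexins and semaphorins, the partners of neuropilins, 0 had an unadjusted p under 0.05 (3 without Apelin-KO 2 and 4 after centring on endothelial markers), and the most abundant, Sema3f, was at 328 ± 25.4 FPKM in WT and 364 ± 45.6 FPKM in Apelin-KO.

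Genes known to be induced by VEGF in ECs gave 2 of 21 with an unadjusted p under 0.05, or 9.52%, a share near that of all genes, and 0 without WT 1, WT 2 or Apelin-KO 3. These were the phosphatase gene Dusp6, at 125 ± 7.80 FPKM in WT and 151 ± 10.2 FPKM in Apelin-KO, and the homeobox gene Hlx, at 21.7 ± 2.28 and 27.2 ± 3.09 FPKM (SD, n = 3). Esm1, a tip cell gene, was at 562 ± 134 FPKM and 593 ± 84.3 FPKM. Of 8 tested genes of oxygen sensing, which control Vegfa through hypoxia-inducible factors, 7 were higher in Apelin-KO and 1 in WT (2 and 6 after centring on endothelial markers, which moves all genes alike), and the list median relative to that of all genes was -0.106 on either scale. An unadjusted p under 0.05 was reached by 1 of 8, or 12.5%, against 9.42% of all genes, and by 0 without WT 2 and under unmoderated variances. Egln1, which encodes the prolyl hydroxylase PHD2, was that gene (unadjusted p of 0.0134 by limma), at 7.85 ± 4.28 FPKM in WT and 18.5 ± 5.96 FPKM in Apelin-KO, and its groups overlapped. Hif1a, the oxygen-regulated factor itself, was at 170 ± 5.15 FPKM and 185 ± 28.3 FPKM.

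**Figure D5:**
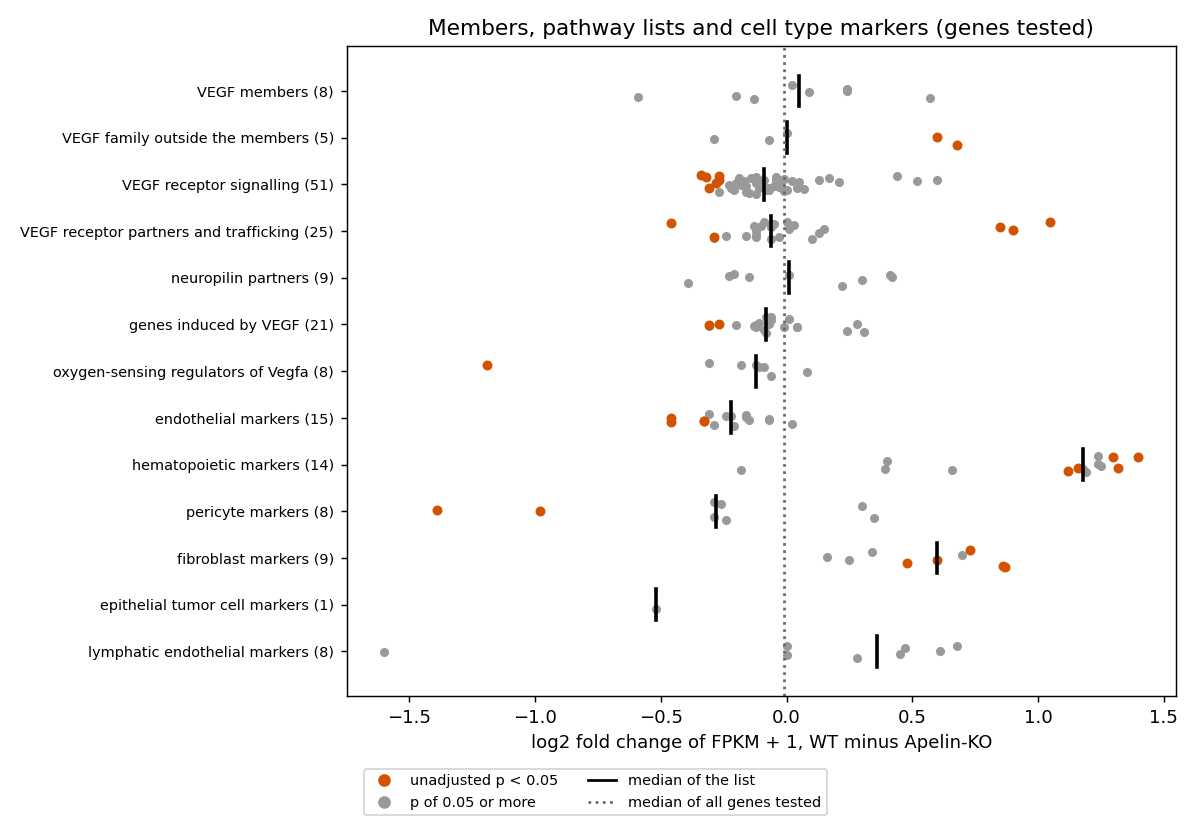
Log2 fold change of FPKM + 1, WT minus Apelin-KO, on the deposited scale, of every tested gene of the members, the pathway lists and the cell type marker lists (points), with list medians (black bars) and the median of all genes (dotted line). The members scatter on both sides of 0, endothelial markers lie mostly towards Apelin-KO and hematopoietic and fibroblast markers mostly towards WT.

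Cell type markers were read beside the members, and 0 of them had an adjusted p under 0.05. In such bulk samples, fewer cells of a type and less RNA per cell cannot be told apart. Of 15 endothelial markers, all tested, 14 had a higher mean log2 value in Apelin-KO and 4 of these an unadjusted p under 0.05 (Pecam1, Cdh5, Tie1 and Sox17), or 26.7%. Over all genes tested, 9.42% had such a p and 47.5% a log2 fold change above 0. This count of 4 was 0 without WT 2 and 0 without Apelin-KO 3. Their summed level was 5000 to 5910 FPKM in WT and 5950 to 6280 FPKM in Apelin-KO, with none at 0. Of 16 hematopoietic markers, 14 were tested, 13 were higher in WT and 5 of those had an unadjusted p under 0.05 (Ptprc, Cd52, Tyrobp, Cd53 and Adgre1), or 35.7% of those tested against the 9.42%. That count rested on single libraries, as it was 0 without WT 2, 0 without Apelin-KO 1, 1 without WT 1 and 13 without WT 3, and fell to 0 under unmoderated variances. Their sum was 385 to 1000 FPKM in WT and 252 to 470 FPKM in Apelin-KO, and none was at 0 in all samples. Of 12 fibroblast markers, 9 were tested, all 9 were higher in WT, 5 with an unadjusted p under 0.05 (55.6%), and their sum was 232 to 405 FPKM against 154 to 243 FPKM. Without WT 1, WT 2 or Apelin-KO 1 this count was 1, without Apelin-KO 2 it was 2, without WT 3 it was 8, and unmoderated variances gave 1.

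Pericyte, lymphatic and tumor cell markers were also read. Of 12 pericyte markers, 8 were tested, of which 6 were higher in Apelin-KO and 2 in WT. An unadjusted p under 0.05 was reached by 2, Rgs5 and Higd1b (25.0% against 9.42% of all genes), both higher in Apelin-KO. This count was 4 without WT 3, without a filter and after centring on endothelial markers. It was 3 without WT 2 or Apelin-KO 3, and 1 at a mean of at least 5 FPKM. Sums were 149 to 186 FPKM in WT and 198 to 222 FPKM in Apelin-KO. Lymphatic endothelial markers, 8 of 8 tested, had 0 with an unadjusted p under 0.05 and sums of 225 to 480 and 201 to 318 FPKM. The sum of 480 FPKM was that of WT 1, and the other WT samples had 225 and 257 FPKM. Ccl21a, one of these markers, was at 39.1 FPKM in Apelin-KO 2 and at most 0.484 FPKM in the other samples. Of 10 epithelial markers only Krt20 reached the level tested, Cdx2 was at 0 in all samples, and the sums were 8.46 to 13.6 and 9.40 to 21.7 FPKM.

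Over the 6 samples, with the mean log2 value of each list as its score, Kdr ran with the endothelial markers (r = 0.84) and opposite to the hematopoietic (r = -0.90) and fibroblast markers (r = -0.87). Vegfa ran with the receptor partners and trafficking list (r = 0.92) and the fibroblast (r = 0.86), hematopoietic (r = 0.74) and lymphatic markers (r = 0.74). Vegfb ran with the lymphatic (r = 0.79) and fibroblast markers (r = 0.77). Vegfc ran opposite to the endothelial markers (r = -0.79) and the VEGF signalling list (r = -0.8). Pgf and Flt1 had little relation to the fibroblast markers (r = 0.03 and r = -0.09). They ran with the VEGF signalling list (r = 0.90 and r = 0.86), the genes induced by VEGF (r = 0.87 for both) and the oxygen-sensing genes (r = 0.87 and r = 0.83). Every list was correlated with every member over the same 6 samples, and only a part of the values is given, as a description. The part of these cell type markers in the members' values was not tested. When every sample was centred on the 15 endothelial markers, the median log2 fold change of all genes moved to 0.219, and relative to that median Kdr stood at -0.122, Flt1 at -0.188, Nrp1 at 0.0287, Nrp2 at 0.245, Vegfa at 0.582, Vegfb at 0.101, Vegfc at 0.253 and Pgf at -0.584. On the centred scale itself Kdr and Flt1 turned in direction, and Vegfc (unadjusted p of 0.0152) and Nrp2 (0.0191) passed an unadjusted p of 0.05, each with an adjusted p of 0.256 by limma.

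The genes whose pattern over the 6 samples was most like each member, out of 10964 tested, had Pearson correlations of log2 FPKM + 1 above 0.97. For Kdr they were Sptan1 (0.993), Dchs1 (0.990) and Glmp (0.984), and for Flt1 Whsc1l1 (0.997), Klf4 (0.992) and Akap12 (0.990). Nrp1 was most like Acad11 (0.996), Kctd2 (0.984) and Swi5 (0.983), and Nrp2 most like Bscl2 (0.992), Ppip5k2 (0.976) and Hist1h3i (0.976). For Vegfa they were Frs2 (0.990), Cdc14a (0.986) and Nacc2 (0.983), and for Vegfb Clip3 (0.987), 4930430F08Rik (0.985) and Clint1 (0.981). Vegfc was most like Gpatch4 (0.996), Pno1 (0.994) and Pdgfa (0.988), and Pgf most like Bcar3 (0.997), Picalm (0.995) and Hdac9 (0.989). Between 64 and 227 genes per member had a correlation above 0.9.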

How the data were processed

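The deposited values are FPKM, 1 per gene symbol and sample, without read counts. The authors made stranded mRNA libraries, read single ends, mapped them to mm10, and computed FPKM with Cufflinks. The submitters' processing notes name TopHat2 2.1.1, Bowtie2 2.2.4, SAMtools 1.0 and Cufflinks 2.2.1, and the study's methods give other versions of the first 3. The annotation, strand setting and filters are not given in the sources used here.

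For 10964 of 24346 genes, those averaging 1 FPKM or more across all 6 libraries, WT and Apelin-KO were compared by limma 3.58.1 (R 4.3.3) on log2(FPKM + 1), WT minus Apelin-KO, by a two-sided moderated test with Benjamini-Hochberg adjustment. This scale understates differences of low genes. The members and gene lists were chosen with earlier results of these data known. Named genes were the members, Apln, up to 4 genes per list with the lowest unadjusted p under 0.05, up to 3 per list with the highest mean, and the 3 genes most like each member. Gpc1, Adgre1, Cdx2, Cd79a, Erg, Figf and Ccl21a were named outside this rule after their values were seen.

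Depth was estimated from 3745 genes with a single transcript, assuming 200-base fragments. The smallest depth that brought low values closest to whole reads was taken. At that depth, between 65.5% and 69.9% of these same values lay within 0.1 of a whole read. Chance gives 20% for a depth fixed in advance, which this one was not. These estimates give approximate reads, and no count test was run. The fit was tested on simulated data. Positions are from GENCODE for GRCm38, and promoters from RefSeq. Alternatives changed the pseudocount, filter, scaling, variance, block and samples included.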

Additional observations from a re-analysis of the deposited data

How the results depend on the processing

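In every alternative 0 members had an adjusted p under 0.05. Genes with an adjusted p under 0.05 numbered 2 at a pseudocount of 5 FPKM, without a filter, at a mean of at least 5 FPKM and with an intensity trend, 0 with each gene's own variance, and 0 to 3 when a sample was left out. Members with an unadjusted p under 0.05 numbered 1 under each of those 5 settings (Vegfc), 2 with centring on endothelial markers (Vegfc and Nrp2) and 0 to 1 when a sample was left out. Centring gave 3 members whose groups did not overlap, 2043 genes with an unadjusted p under 0.05 and 2913 genes whose groups did not overlap, and turned Kdr to 0.0979 and Flt1 to 0.0311, relative to a median of 0.219. Without a sample these counts were 1 to 3 members, 538 to 1233 genes and 2213 to 3286 genes, and fewer samples overlap less by construction. The log2 fold change of Apln stayed at 4.73 with each gene's own variance, with an adjusted p of 0.497, and lay between 4.4 and 5.0 when a sample was left out, with an adjusted p of 0.122 without WT 2 and 0.131 without Apelin-KO 2. When a sample was left out, Vegfb ran from -0.182 to 0.368 and Nrp1 from -0.10 to 0.0962. Vegfb turned to -0.182 without WT 1 and -0.114 without Apelin-KO 1, and Nrp1 to -0.0891 without WT 3 and -0.10 without Apelin-KO 3. The cause of these changes was not tested. Vegfa has no value at a mean of at least 5 FPKM. Of 127 alternative fold changes of members, 121 kept their direction. The adjusted p was 0.05 or more in all of them, so that this number measures direction alone.

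After each group's own mean was taken off, samples with the same replicate number had correlations of -0.139, 0.207 and -0.0186. Those with different numbers ran from -0.195 to 0.212. With 3 samples per group, these values cannot decide whether the numbers pair the samples. With the replicate block, 1 gene had an adjusted p under 0.05, 893 had an unadjusted p under 0.05, and 0 members passed either. The estimated reads are lowest for Vegfa and Vegfb, and their part in the spread was not tested. The 3 samples per group limit every member. Of 192 alternative counts over the gene lists, 74 moved by more than 1.5 times or changed to or from 0.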
